A study of Mus musculus with 4 samples.

Results

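The genes described here are the cadherins and protocadherins of the mouse, 91 of 21887 protein-coding genes on chromosomes 1 to 19, X and Y. They were taken by symbol, as every protein-coding RefSeq gene named Cdh followed by a number or starting with Pcdh, with Cdh5 left out. By the nomenclature of the family, 17 are classical cadherins, 5 are other Cdh genes (Cdh13, Cdh16, Cdh17, Cdh23 and Cdh26), 57 are clustered protocadherins of the alpha, beta and gamma groups, and 12 are unclustered protocadherins. The data were the positions of 11438 peaks of FOXL2, a forkhead factor that ovarian supporting cells need to keep their identity, found by ChIP-seq (sequencing of the DNA fragments that an antibody recovers with a bound protein) in ovaries of CD1 mouse embryos at E14.5. There were 2 FOXL2 ChIP samples, each made with 4 µg of antibody from chromatin of 80 to 100 pooled ovaries freed of the mesonephros, and 2 input samples made without antibody from the same kind of XX gonads. A peak list was deposited once for the ChIP samples together, with no score or height, so no peak has a replicate error, the read depth is unknown, and no sample can be set against another. Because whole ovaries were used, a peak in few cells and weak binding in many cannot be told apart. The authors' threshold is not given here, and sites too weak to pass it would look unbound.

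Cadherins are calcium-dependent adhesion proteins that join cells by binding a cadherin of the same or a related kind on the neighbouring cell. Classical cadherins hold adherens junctions together and are tied to actin through beta-catenin and alpha-catenin. Type I members such as E-cadherin (Cdh1) and N-cadherin (Cdh2) give strong adhesion in epithelia and mesenchyme, and type II members act mostly in the nervous system and mesenchyme. Protocadherins lack the catenin-binding tail. The clustered ones are best known from neurons, where each cell uses its own mix of isoforms. In the alpha and gamma clusters, each gene has a variable first exon with a promoter of its own, joined to constant exons that all genes of the cluster share. The beta genes have no such constant exons. In the fetal ovary, cadherin contacts hold germ cells and supporting cells together.

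FOXL2 peaks lay in or near 51 of the 91 genes (56.0%, exact 95% interval 45.2 to 66.4%), a gene being counted as occupied when the centre of a peak fell inside it or within 10 kb of either end. Over all protein-coding genes the share was 49.6%. The count over genes is much larger than the number of binding sites behind it: only 22 distinct peaks, of which 18 belonged to a single gene each and 4 to many protocadherin genes at once. The interval for all 91 genes treats genes that share a peak as independent. Outside the clusters, 16 of 34 genes were occupied (47.1%, 29.8 to 64.9%), against the same 49.6%. Counted once over the length of their windows, the members had 1.92 distinct peaks per Mb, against 7.94 per Mb for all protein-coding genes. These densities were not adjusted for window length, and the windows of members are longer. For each of the 22 peaks the nearest protein-coding border was that of a member. Of these peaks, 18 lay in the 10 kb window of no other protein-coding gene outside the family. The 4 peaks of the clusters also fell in the windows of Gm37013, Gm38666 and Gm38667, and 1 of them in that of Diaph1. Borders of noncoding genes or pseudogenes were nearer than the member's own at many of the 22. These were the peaks of Cdh4, Cdh6 (2 peaks), Cdh8, Cdh15, Pcdh7, Pcdh9, Pcdh15 and Pcdh17. The peak near the common end of the gamma genes was another.

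By share of genes and by distinct peaks per Mb, the order of the classes was the same. It differed for genes with a peak within 1 kb of their own border. These were 17.6% of classical cadherins, 16.7% of unclustered protocadherins, 3.51% of clustered protocadherins and 0% of other Cdh genes. The share of all protein-coding genes with such a peak was 35.3%. For all protein-coding genes the values were 49.6% and 7.94 per Mb. The median window was 173 kb for classical cadherins and 95.1 kb for unclustered protocadherins, against 37.2 kb for all protein-coding genes. Classical cadherins were occupied in 9 of 17 cases (52.9%, exact interval 27.8 to 77.0%) by 11 distinct peaks, or 2.26 per Mb. The other Cdh genes were occupied in 1 of 5 cases (20.0%, 0.505 to 71.6%) by 1 peak, or 0.55 per Mb. Clustered protocadherins were occupied in 35 of 57 cases (61.4%, 47.6 to 74.0%), but by only 4 distinct peaks, or 5.54 per Mb. Within this class the density was 14.99 per Mb in the gamma cluster, 3.59 in the alpha cluster and 0 in the beta cluster. Unclustered protocadherins were occupied in 6 of 12 cases (exact interval 21.1 to 78.9%) by 6 peaks, or 1.49 per Mb. These intervals cover counting error alone, and the genes of the clusters are not independent. All 4 overlap, and no test between classes was made.

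**Figure D1:**
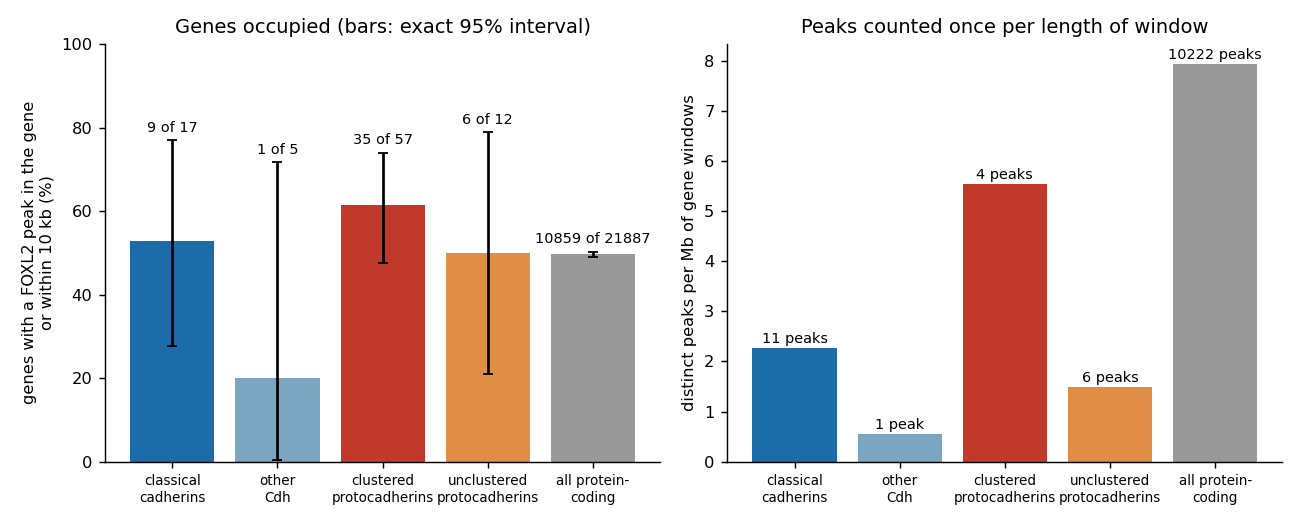
Left, the share of genes with a FOXL2 peak in the gene or within 10 kb in each class, with exact 95% intervals and the counts above; right, the number of distinct peaks per Mb of gene windows. The 35 occupied clustered protocadherins rest on 4 peaks, and every class lies below the 7.94 peaks per Mb of all protein-coding genes at the far right. The gamma cluster, not drawn apart, had 14.99 per Mb.

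Members have long windows, with a median of 118 kb, against 37.2 kb for all protein-coding genes. Outside the clusters, members with a window of 100 to 200 kb were occupied in 3 of 8 cases, against 70.8% of all protein-coding genes of that length. With 50 to 100 kb the count was 2 of 5, against 62.9%, and with 200 to 500 kb 5 of 7, against 68.8%. Over 500 kb it was 3 of 6, against 63.7%, and under 50 kb 3 of 8, against 41.2%. The groups hold 5 to 8 genes each, so a single gene moves these shares by over 10 percentage points.

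Among the classical cadherins, all 5 type I genes were occupied, by 6 peaks, and 4 of 12 type II genes were, by 5 peaks, beside 49.6% of all protein-coding genes. The exact 95% intervals, 47.8 to 100% for type I and 9.92 to 65.1% for type II, overlap, and the difference was not tested. The type II interval treats genes as independent, but Cdh9, Cdh10, Cdh12 and Cdh18 lie in 1 peak-free stretch and Cdh7 and Cdh19 in another. Median windows were 86.9 kb for type I and 178 kb for type II. Of all protein-coding genes, 62.9% were occupied with windows of 50 to 100 kb and 70.8% with 100 to 200 kb. Cdh1, which encodes E-cadherin, the main adhesion protein of epithelia and of fetal germ cells, lies on chromosome 8 from 106603350 to 106670247. Its peak, at chr8:106603129-106603428, was centred 72 bp outside its lower border. Cdh3, which encodes P-cadherin, lies on the same chromosome with its upper border 46.4 kb below the lower border of Cdh1. It had a peak centred 55 bp inside its lower border, at chr8:106510758-106511057, and another 2992 bp outside that border, at chr8:106507711-106508010. These neighbouring genes therefore each had a peak within 100 bp of a border.

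Cdh2, the N-cadherin gene, lies on chromosome 18 from 16588877 to 16809246. Its only peak was at 16808751 to 16809050, centred 346 bp inside the upper border. Cdh4, which encodes R-cadherin, first known from retina, had a peak far from both ends, 211.9 kb inside the gene on chromosome 2, at 179687339 to 179687638. Cdh15, the M-cadherin gene of muscle cells, had its peak 3236 bp outside its upper border on chromosome 8, at 122870484 to 122870783. That peak was centred 220 bp from a border of the long noncoding RNA gene Gm39273 and 22.3 kb from the listed start of Cdh15. Of the type I genes, Cdh1, Cdh2 and Cdh3 thus had a peak within 1 kb of a border.

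The occupied type II genes were Cdh6, Cdh8, Cdh11 and Cdh20, and each had a peak between 1 and 3 kb inside the gene. A listed start was at hand for 3 of them, and there the peak was close to a start that lies inside the outermost border. In Cdh8, a cadherin studied mainly in the brain, the peak was centred 151 bp downstream of the listed start and 1346 bp from the border. A border of the long noncoding RNA gene A330008L17Rik lay 354 bp from the same peak. In Cdh6, known from the developing kidney and neural crest, a peak was centred 193 bp downstream of the listed start and 2925 bp from the border. A second Cdh6 peak lay deep in the gene at chr15:13067618-13067917, 39.1 kb from the lower border. The peak of Cdh20 was 881 bp downstream of its start on chromosome 1, at 104769252 to 104769551. Cdh11, the cadherin of mesenchymal and bone-forming cells, had its peak 1270 bp inside the upper border on chromosome 8, at 102784074 to 102784373.

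Across the family, 7 of the 91 genes (7.69%) had a peak within 1 kb of their own border, against 35.3% of all protein-coding genes. Outside the clusters the count was 5 of 34 genes (14.7%). A listed start was at hand for 22 members, none of them clustered, and 4 of these (18.2%) had a peak within 1 kb of it, against 38.4% of all protein-coding genes with a listed start. They were Cdh6, Cdh8, Cdh20 and Pcdh17. No start was listed for Cdh1, Cdh2, Cdh3 and Pcdh1, which had a peak within 1 kb of a border, so the 22 leave them out. Of the 22 distinct peaks, 8 were within 1 kb of a member's border, 3 more were within 1 kb of a listed start only, and 11 were elsewhere. Over all peaks, 63.4% were within 1 kb of a protein-coding border. Peaks farther than 1 kb from any protein-coding border were counted for 33 of the 91 genes (36.3%), against 13.7% of all protein-coding genes, but 21 of the 33 are gamma genes that share the same peak. Outside the clusters the count was 12 of 34 (35.3%), and these windows are long.

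The sequences at 3 of these starts are shown because the peak reaches into the stretch itself, and that of Cdh10 is shown as a start without a peak for over 5 Mb. They are RefSeq promoters of build GRCm38.p6, 300 bases from upstream to just past the start, and capitals mark the bases inside the FOXL2 peak. Pcdh17 is from chr14:84443313-84443612 on the plus strand, with 176 bases in the peak. Cdh8 is from chr8:99416422-99416721 on the minus strand, with 49 bases in the peak. Cdh6 is from chr15:13173626-13173925 on the minus strand, where the peak takes in only the last 7 bases and goes on into the gene. Cdh10 is from chr15:18820079-18820378 on the plus strand.
Pcdh17: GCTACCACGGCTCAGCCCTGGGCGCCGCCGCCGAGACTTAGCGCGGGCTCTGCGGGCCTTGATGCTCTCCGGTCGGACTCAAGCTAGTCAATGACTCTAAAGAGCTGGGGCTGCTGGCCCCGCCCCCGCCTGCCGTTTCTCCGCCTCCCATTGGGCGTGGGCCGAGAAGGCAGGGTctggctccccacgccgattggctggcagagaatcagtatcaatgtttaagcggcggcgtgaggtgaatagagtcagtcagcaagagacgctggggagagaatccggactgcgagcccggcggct
Cdh8: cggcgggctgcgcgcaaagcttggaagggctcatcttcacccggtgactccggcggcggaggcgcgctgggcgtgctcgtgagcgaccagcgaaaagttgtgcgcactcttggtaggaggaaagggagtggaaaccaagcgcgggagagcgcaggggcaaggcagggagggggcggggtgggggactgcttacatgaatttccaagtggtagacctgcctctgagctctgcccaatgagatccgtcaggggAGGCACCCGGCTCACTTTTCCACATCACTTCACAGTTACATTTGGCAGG
Cdh6: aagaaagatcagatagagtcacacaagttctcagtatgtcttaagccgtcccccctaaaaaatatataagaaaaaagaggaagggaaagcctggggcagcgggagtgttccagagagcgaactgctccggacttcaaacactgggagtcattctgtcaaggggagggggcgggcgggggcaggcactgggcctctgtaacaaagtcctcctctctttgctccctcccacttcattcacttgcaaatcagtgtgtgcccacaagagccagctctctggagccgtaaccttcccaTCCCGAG
Cdh10: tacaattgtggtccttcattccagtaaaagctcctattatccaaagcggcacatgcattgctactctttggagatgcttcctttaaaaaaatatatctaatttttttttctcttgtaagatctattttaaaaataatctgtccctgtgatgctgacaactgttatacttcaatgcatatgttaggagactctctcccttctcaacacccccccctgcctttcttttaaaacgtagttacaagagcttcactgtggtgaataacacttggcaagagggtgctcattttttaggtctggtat

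The sequences differ in base composition. Pcdh17 had 65.0% G and C and Cdh8 62.3%, against 53.0% for Cdh6 and 37.7% for Cdh10. The ratio of observed to expected CpG was 0.82 in Pcdh17, 0.75 in Cdh8, 0.38 in Cdh6 and 0.19 in Cdh10. The forkhead consensus GTAAACA was searched on both strands and was in none of the 22 member promoters, against 2.95% of all protein-coding promoters. Its core TAAACA, which the longer form contains, was in 3 of 22, against 11.3% of all. The members with it were Cdh12, Pcdh17 and Pcdh20, and in Pcdh17 it starts at base 219 on the opposite strand, past the bases in capitals. The E-box CAGGTG, a site of Snail and ZEB repressors, was in 3 of 22, against 19.3% of all, and was found in Cdh7, Pcdh7 and Pcdh15. Of the 300 bases of each peak, the promoter windows hold 176 for Pcdh17, 49 for Cdh8 and 7 for Cdh6. The other bases of these peaks were not searched.

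Starts rich in G and C were occupied more often over the whole gene set. Of all protein-coding genes whose start had at least 60% G and C, 64.1% had a peak within 1 kb of it, and of those under 50%, 7.96%. Among members the counts were 2 of 10 at or above 60%, 0 of 6 below 50%, and 2 of 6 between. Between these limits, the share of all protein-coding genes was 34.4%. Members without a listed start, such as Cdh1, Cdh2 and Cdh3, are not in these counts. The richest member starts, Cdh22 with 76.3% and Cdh24 with 73.3% G and C, had their nearest peaks 91.5 and 23.2 kb away. Median G and C was 56.8% over the 22 member starts and 56.7% over all protein-coding starts. Member starts without a peak thus ranged from 37.7 to 76.3% G and C.

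**Figure D2:**
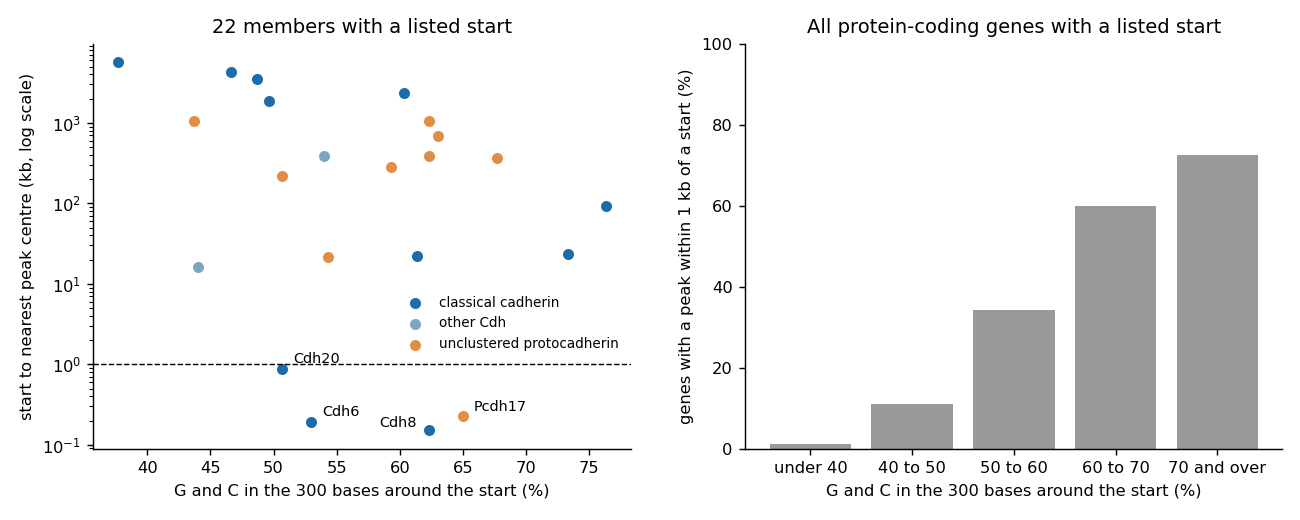
Left, for the 22 members with a listed start, the G and C content of the promoter against the distance to the nearest peak centre (log scale, dashed line at 1 kb); right, the share of all protein-coding genes with a peak within 1 kb of a start, by G and C content. Cdh6, Cdh8, Cdh20 and Pcdh17 fall under the line, and members at or above 60% lie under it in 2 of 10 cases.

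The clustered protocadherins lie on chromosome 18 from 36930285 to 37841873, a stretch of 911.6 kb. The alpha cluster of 14 genes held a single peak, the beta cluster of 22 genes held none, and the gamma cluster of 21 genes held 3. The alpha peak, at 37143842 to 37144141, was centred 313 bp inside the lower border of Pcdhac2, which is the last variable gene of its cluster. All 14 alpha genes run over this position to the shared end of the cluster and so were counted as occupied. Only Pcdhac2 had it within 1 kb of a border. The lower borders of Pcdha1 to Pcdha12 and of Pcdhac1 were 53.9 to 213.7 kb away from it.

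In the gamma cluster 2 of the peaks lay at Pcdhgc3, the first C-type gene of that cluster, C-type genes being variants set apart from the others by sequence. They were centred 186 and 735 bp inside its lower border, at 37806447 to 37806746 and 37806996 to 37807295, so their centres lay 549 bp apart. The third gamma peak, at 37835649 to 37835948, lay in the part that all gamma genes share, about 6.07 kb before the common upper end. As a result, 20 gamma genes were counted with 3 peaks, although no gamma gene other than Pcdhgc3 had a peak within 1 kb of a border. Having 2 or more peaks was seen in 22 of the 91 members, against 14.8% of all protein-coding genes, and these were the 20 gamma genes, Cdh3 and Cdh6. Of the 35 alpha and gamma genes, 33 had no peak within 1 kb of a border.

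The beta genes, which are short genes of 2.34 to 5.27 kb standing one after another, were occupied in 0 of 22 cases. The exact 95% interval reaches up to 15.4%, and 41.2% of all protein-coding genes with a window under 50 kb were occupied. Neighbouring beta genes are not independent. They all lie inside a stretch of 500.6 kb with no peak, between the Pcdhac2 peak and a peak 354 bp from a border of Taf7, a gene of the general transcription factor TFIID. Nearest peaks were between 121.0 and 240.6 kb from the beta genes. Below the alpha cluster, the nearest peak was at a border of the noncoding RNA gene Vaultrc5, 128.6 kb before Pcdha1. C-type genes Pcdhac1, Pcdhgc4 and Pcdhgc5 had no peak within 1 kb of a border.

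**Figure D3:**
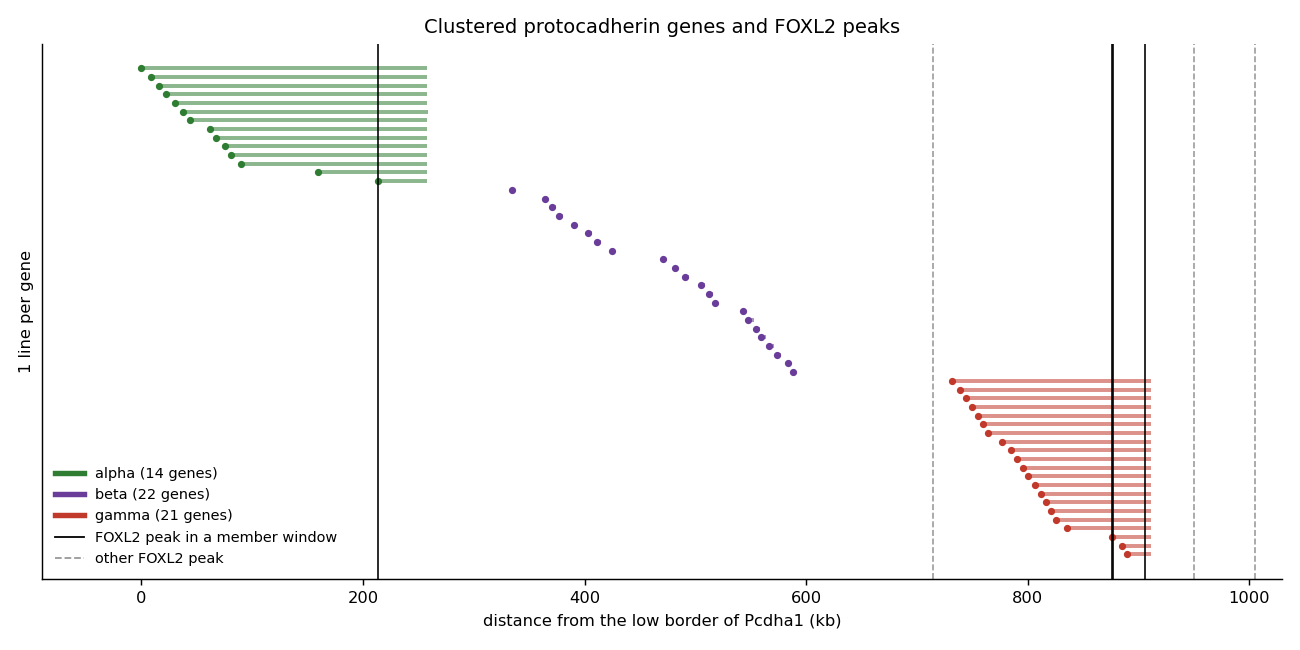
Each of the 57 clustered protocadherin genes is a line from its lower border (dot) to its upper border, in kb from the lower border of Pcdha1; vertical lines are FOXL2 peaks, solid where a member window holds them and dashed elsewhere. The 4 solid peaks sit at Pcdhac2, at Pcdhgc3 (2 peaks drawn close together) and near the common end of the gamma genes, and none crosses the beta cluster.

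Among the unclustered protocadherins, Pcdh1 and Pcdh17 had a peak within 1 kb of a border. Pcdh17, an adhesion protein known from axons and synapses, had its peak 225 bp upstream of the listed start, and a border of the long noncoding RNA gene Gm32498 was 66 bp from the same peak. Pcdh1, expressed in epithelia, had its peak 464 bp inside the upper border on chromosome 18, at 38211435 to 38211734. In the X-linked gene Pcdh11x the peak lay 2727 bp inside the lower border, at 120292816 to 120293115. The other 3 had a peak deep inside a very long gene. That of Pcdh7 was 132.6 kb from the nearer end (chr5:58000502-58000801), that of Pcdh9 393.7 kb (chr14:93499018-93499317) and that of Pcdh15 606.3 kb (chr10:74043421-74043720). Pcdh15 encodes a part of the tip link of inner ear hair cells. With the Cdh4 peak, these made 4 peaks over 100 kb from both ends of the gene that holds them.

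Among the other Cdh genes, Cdh16, which encodes the kidney-specific Ksp-cadherin, had a peak 9811 bp from its nearer end on chromosome 8, at 104611577 to 104611876. Cdh13, which encodes the membrane-anchored T-cadherin and spans 1185 kb, had no peak, and the nearest was 233.8 kb away at a border of Mbtps1. Cdh23, whose protein is the partner of protocadherin 15 in the hair cell tip link, had its nearest peak 25015 bp away at a border of Psap. The nearest peak of Cdh26 was 16.2 kb away at Ppp1r3d. That of Cdh17, the intestinal LI-cadherin gene, was 30.5 kb away. Of the occupied members outside the clusters, Cdh15 (3.24 kb), Pcdh17 (0.225 kb) and Cdh1 (0.072 kb) were those with no peak inside the gene, so none was close to the 10 kb limit. Just beyond it were Pcdh12 at 12.5 kb, Cdh24 at 13.1 kb, Cdh26 at 16.2 kb and Pcdh8 at 17.0 kb.

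**Figure D4:**
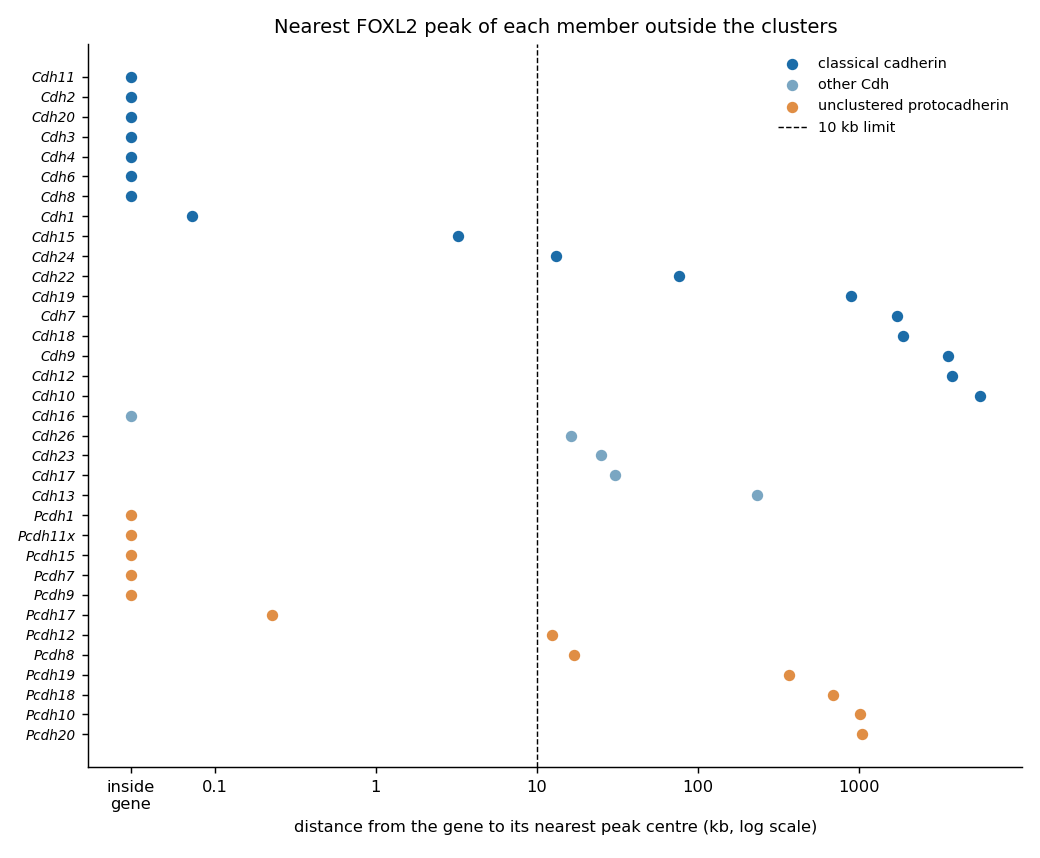
Distance from each of the 34 members outside the clusters to its nearest peak centre, on a log scale, with genes that hold a peak at the left end and the 10 kb limit dashed. Occupied members lie at or below 3.24 kb, and 18 members lie beyond the limit, up to 5645 kb for Cdh10.

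Most of the unoccupied classical cadherins lay far from any peak, with Cdh24 at 13.1 kb and Cdh22 at 76.7 kb as the nearest. The median distance to the nearest peak was 1803 kb for the 8 unoccupied classical cadherins and 88.5 kb for all protein-coding genes without a peak, and 4 of the 8 share the stretch of chromosome 15 described next. It was 528.2 kb for the 6 unclustered protocadherins, 165.8 kb for the 22 beta genes and 27.8 kb for the 4 other Cdh genes without a peak. The nearest peak of Cdh10 was 5.65 Mb away, that of Cdh12 3.77 Mb, that of Cdh9 3.56 Mb and that of Cdh18 1.89 Mb. These are type II cadherins known mainly from the brain. All 4 lie within a single peak-free stretch of chromosome 15, 12.2 Mb long, which runs from the Cdh6 peak at its start to a peak near Basp1. It was the second longest of 11414 intervals between neighbouring peak centres, whose median was 78.4 kb. It holds 6 protein-coding genes in all, the others being Acot10 and Hnrnpa1l2-ps2. Cdh6, a member with 2 peaks, thus stands at the edge of a stretch that holds 4 other cadherin genes whole and without a peak.

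Other members lay in long stretches too. Cdh7 and Cdh19 shared one of 5.07 Mb on chromosome 1, which ranked 22 in length. Pcdh20 was the only protein-coding gene of a stretch of 6.08 Mb on chromosome 14 (rank 12), and Pcdh18 and Pcdh10 were the only ones of neighbouring stretches of 4.00 and 3.51 Mb on chromosome 3 (ranks 39 and 55). Pcdh19, an X-linked gene of neuronal adhesion, lay in one of 4.31 Mb (rank 30). Outside the clusters, 12 of the 18 members without a peak lay whole in a peak-free stretch over 1 Mb, against 29.6% of all protein-coding genes without a peak. With the 22 beta genes included the count was 12 of 40, or 30.0%, which is close to that background. Of all 91 members 13 (14.3%) lay in such a stretch, against 15.3% of all protein-coding genes. The 12 genes shared 8 stretches. Whether they hold sequence that short reads map to poorly was not examined here.

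**Figure D5:**
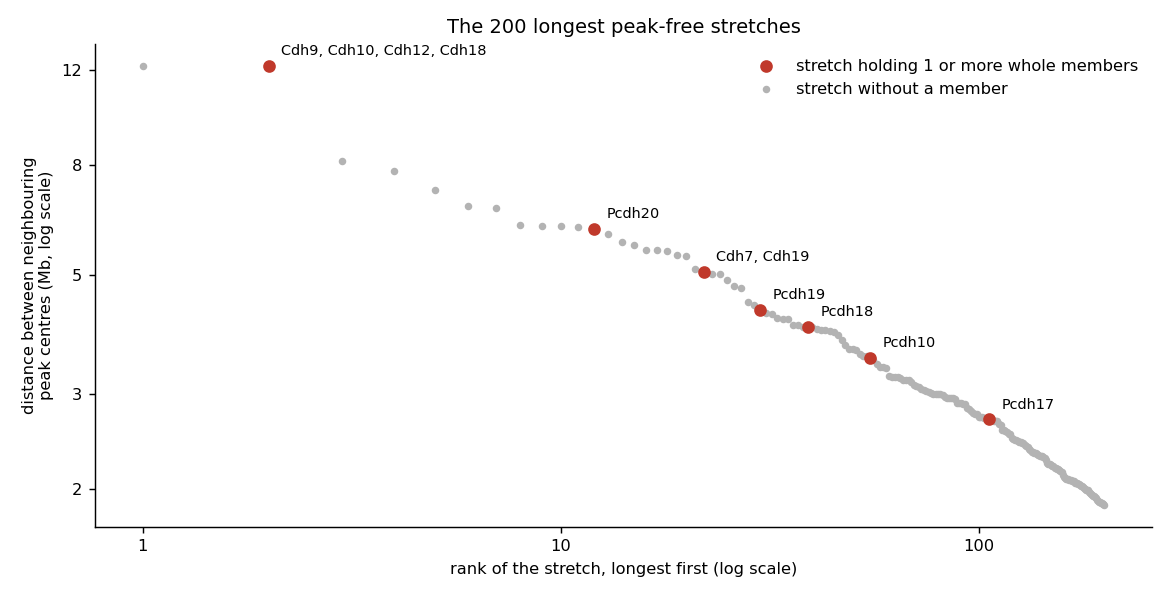
The 200 longest peak-free stretches by rank (both axes on log scales); red points hold at least 1 whole member and are named. The stretch with Cdh9, Cdh10, Cdh12 and Cdh18 ranks second at 12.2 Mb; Pcdh17 lies in a stretch that begins at the peak upstream of its own start.

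Genes of the cadherins' partners were counted in the same way, and no test against the members was made. The lists were chosen with earlier results of these data known, and shares were not matched for window length. Of 13 catenins and relatives, 9 (69.2%, exact 95% interval 38.6 to 90.9%) were occupied, against 49.6% of all protein-coding genes, and 7 of the 13 (53.8%) had a peak within 1 kb of a border, against 35.3%. The peak of Ctnnb1, the beta-catenin gene, was 69 bp inside a border, that of Ctnna1, an alpha-catenin gene, 112 bp and that of Ctnna2, the neuronal alpha-catenin gene, 23 bp. That of Ctnnd1, the gene of p120-catenin, was 182 bp outside and nearer to a border of Btbd18. The Ctnna3 peak lay 628.5 kb from the gene's nearer end and was nearest to a border of Lrrtm3. In Ctnnd2 the peak lay 274.4 kb from the nearer end. Jup, Arvcf, Pkp1 and Pkp3 had no peak. Of 10 other adherens junction genes, 8 (80.0%, 44.4 to 97.5%) were occupied, against 49.6% of all protein-coding genes. A peak within 1 kb of a border was seen in 4 of the 10, against 35.3%, so this share was close to that of all protein-coding genes. These 4 include Vcl (289 bp inside), the vinculin gene, and Afdn, the afadin gene, with 2 peaks, of which 1 was nearest to Tcte2. The peak counted for Nectin2 was nearest to a border of Tomm40.

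Other genes of the cadherin superfamily had peaks in 10 of 27 cases (37.0%, 19.4 to 57.6%), against 49.6% of all protein-coding genes. Of the 27, 3 (11.1%) had a peak within 1 kb of a border, against 35.3% of all protein-coding genes. The peaks counted for Cdhr2, Cdhr4 and Dchs2 were nearest to borders of Rnf44 and Gprin1, of Ip6k1 and of Gm10710. Desmosomal cadherins were mostly without a peak, with Dsg2 (260 bp inside) and Dsc2 (439 bp inside) as the occupied ones of 9. Dchs1 and Fat4 encode a ligand and receptor pair of giant cadherins. Dchs1 had 3 peaks, of which 1 was nearest to Taf10, Fat4 had 2 and Fat1 had 1. Celsr1, Celsr2 and Celsr3, the planar polarity cadherins, had none. Of 15 genes for transcription factors and chromatin proteins known to act on cadherin or protocadherin genes, 12 (80.0%, 51.9 to 95.7%) were occupied, against 49.6% of all protein-coding genes. Like the other lists, this one was chosen with earlier results of these data known, so its interval is no test against that share. The share was not matched for window length. A peak within 1 kb of a border was seen in 8 of the 15 (53.3%), against 35.3%. The peaks counted for Rad21 and Nipbl were nearest to borders of Gm52217 and LOC102634078. Ctcf, which organises the protocadherin clusters, had a peak 660 bp inside a border and Smchd1, a repressor of clustered protocadherins, 179 bp. Among the repressors of E-cadherin, Zeb2 had 3 peaks, Zeb1 2 and Snai2 1, and Snai1, Twist1 and Twist2 had none.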

How the data were processed

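The peak list was deposited by the authors as start and end positions in bp on mm10, without header, score or strand. Every peak is 300 bp wide. Bowtie 1.2, Picard 1.110, bedtools 2.24.0 and HOMER 4.9 are named in the submitters' processing notes, with no word on their roles, on the peak threshold or on how replicates and inputs entered the list. Groups were read from the sample titles.

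Starts were converted to 1-based positions, and 3 peaks on other scaffolds were left out. Genes came from a RefSeq table of GRCm38.p6, the assembly of mm10, which gives both borders but no strand. Starts and strand came from a RefSeq promoter table for 17492 protein-coding genes; where a gene had several starts, that nearest to a peak was used. A gene counted as occupied with a peak centre in it or within 10 kb, and peaks shared by genes were counted once where stated. The named genes are members, genes bordering their nearest peaks and genes of the partner lists. Shares have exact Clopper-Pearson intervals at 95%, which cover counting error only. No significance test was made, because the list has no replicates. The counting was tested on simulated peaks. Members, gene lists and motifs were chosen with earlier results of these data known. Python 3.11.15, pandas 2.3.3 and scipy 1.17.1 were used.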

Additional observations from a re-analysis of the deposited data

How the results depend on the processing

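Of 42 values recomputed under 7 alternatives, 33 stayed within 1.5 times the main count or, for the share of all protein-coding genes, within its interval, and 9 moved. With a window of 50 kb the members held 40 distinct peaks in place of 22, and 4 of the other Cdh genes were occupied in place of 1. With peaks over 1 kb from every border alone the members held 14 distinct peaks, and 21 clustered protocadherins were occupied in place of 35. These are the gamma genes, which share the peak near their common end, while the Pcdhac2 peak lies at a border and is left out by construction. The share of all protein-coding genes occupied was 36.2% for the gene body alone, 45.9% for 5 kb, 67.5% for 50 kb, 40.3% when a peak counted only for genes that hold it or lie nearest, and 13.7% for peaks over 1 kb from borders, in place of 49.6%. Merging peaks within 500 bp left 11420 peaks and changed none of the 6 values. The Pcdhgc3 peaks, with centres 549 bp apart, stayed separate. The counts of occupied classical cadherins (7 to 10) and unclustered protocadherins (4 to 8) stayed within 1.5 times the main count under all 7 alternatives. Their standing beside the share of all protein-coding genes did not stay the same, because that share moved. For classical cadherins it was 9 of 17 against 49.6% in the main setting and 10 of 17 against 67.5% with 50 kb. With peaks over 1 kb from borders it was 7 of 17 (41.2%) against 13.7%. No stricter threshold could be applied, since the list has no score, and leaving out a replicate was not possible. No paired analysis was possible because the ChIP samples have 1 list between them and the inputs have none here. The depth of the samples is unknown, so an absent peak does not show absent binding.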
